A study of Mus musculus with 22 samples.

Results

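The genes of the small MAF, BACH and NRF transcription factors were followed through erythroid differentiation in ChIP-seq peak lists. The genes were *Mafk*, *Mafg* and *Maff*, their partners *Bach1*, *Bach2*, *Nfe2l1* (NRF1) and *Nfe2l2* (NRF2), the NRF2 regulator *Keap1*, and *Tmem184a*, which neighbors *Mafk*. They are 9 of the 21951 protein-coding genes of the GENCODE annotation (GRCm38, mm10), and they were chosen by name, with no peak value in the rule. All peaks that touched a gene body or the 20 kb on either side of it were taken. In that space, H3K4me3 peaks formed 23 regions, H3K27ac peaks 26 regions, and CTCF peaks 36 regions.

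The cells were G1ER (G1E-ER4), a mouse erythroid progenitor line that lacks *Gata1* and constitutively expresses GATA1 fused to an estrogen-responsive domain (GATA1-ER). G1ER is a single subclone of G1E cells, so all samples share that clone, the fusion protein, and growth in medium with stem cell factor (SCF) and erythropoietin (EPO). Cells were undifferentiated (0 h, no β-estradiol) or were taken after 2, 6, 12, or 24 h with 1e-07 M β-estradiol, the ligand that activates GATA1-ER. Each histone mark had 2 replicate lists at each of the 5 time points, and CTCF had 1 list at 0 h and 1 at 24 h. The labels do not say whether replicates came from separate cultures, but a figure legend of the study calls the ChIP-seq repeats independent experiments. A list gives the start, end, and score of each peak and holds no read counts, so depth is unknown.

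Small MAF proteins are basic leucine zipper factors without an activation domain of their own. As homodimers they repress, and as heterodimers with a cap'n'collar protein (NF-E2, the NRF factors, BACH1 or BACH2) they bind the MAF recognition element and the related antioxidant response element (ARE). NRF2 activates antioxidant, glutathione, and heme-handling genes, KEAP1 holds NRF2 at a ubiquitin ligase until oxidants or electrophiles modify KEAP1, and BACH1 represses many of the same genes until heme binds it. In erythroid cells, NF-E2 with MAFK binds the β-globin locus control region. H3K4me3 marks mostly promoters of active genes, H3K27ac marks active promoters and enhancers, and CTCF is found at the borders and anchors of chromatin loops.

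The lists held 12925 to 14452 H3K4me3 peaks, 17247 to 18333 H3K27ac peaks, and 33193 (0 h) and 41473 (24 h) CTCF peaks. Of 12 erythroid markers, 10 had an H3K4me3 peak at a transcription start site (TSS) in at least 8 lists, 6 of them in all 10, and 4 had an H3K27ac peak in all 10. *Tal1* and *Gata2*, regulators of blood progenitors, had no listed peak of either mark at a TSS in any list. The study describes GATA2 expression as high in undifferentiated G1ER cells, and whether the marks were absent at these start sites was not tested. None of the 10 markers of T cells, B cells, fibroblasts, hepatocytes, neurons, and muscle had a peak of either mark at a TSS in any list, nor did the 4 myeloid markers. The mast cell genes *Cpa3* and *Ms4a2* had an H3K4me3 peak in 7 and 9 lists, namely in 2 lists each at 0 h and in 0 and 1 at 24 h. Their H3K27ac peaks were in 2 and 8 lists. Of 3 megakaryocyte markers, 2 had an H3K27ac peak in all 10 lists, while none of the 3 had an H3K4me3 peak in any list.

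Peak length had an upper bound that matters for the longest regions. The longest peak of a list was between 8769 and 8973 bp for H3K27ac and between 8843 and 9200 bp for H3K4me3, and no H3K27ac peak of any list was longer than 9000 bp. Scores of long peaks were low. The median score percentile within a list was 72.7 for H3K27ac peaks of 3000 to 4000 bp, 47.2 for those of 6000 to 7000 bp, and 7.8 for those of 8500 to 9000 bp. Of 784 H3K27ac regions with a median score percentile of at least 50 and a median length of at least 5000 bp, 143 (18.2%) were missing from at least 1 list, against 94 of 8295 (1.13%) shorter regions. A region of several kb that a list does not hold is therefore reported below as having no listed peak, and whether the mark was absent there was not tested.

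At most of the 9 genes both marks were present throughout. Regions were made by joining all peaks of a mark that touch, whatever their list, and the covered length is the number of bp of a region under the peaks of a list. For H3K4me3, 17 of 23 regions (73.9%) had a peak in all 10 lists, against 70.8% of all 16244 regions. For H3K27ac the count was 15 of 26 (57.7%), against 54.4% of all 24299 regions. Lengths were compared with limma on log2(covered bp + 200) in regions found in 2 or more lists, and a region was called at a Benjamini-Hochberg adjusted p under 0.05 over all regions. Of the members' regions, 20 (H3K4me3) and 24 (H3K27ac) were tested. The 3 H3K4me3 and 2 H3K27ac regions with a peak in 1 list were not tested and held no TSS.

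No H3K4me3 region of these genes was called longer at 24 h than at 0 h (0 of 20, against 0.471% of 14862 regions) and none was called shorter (1.11%). None was called by limma's F-test over all time points (0 of 20, against 1.25%). At an unadjusted p under 0.05 there were 5 members' regions and 1841 regions in all, and the smallest adjusted p was 0.108. No region was gained by presence, meaning a peak in both 24 h lists and in neither 0 h list (0 of 23, against 0.456%), and 2 were lost (against 3.88%). In 5 regions both 24 h lists were longer than both 0 h lists (against 14.0%), and in 6 both were shorter (against 27.3%). The median log2 difference was -0.03 in the members' regions and -0.04 in all regions. Without the first 2 h list 2 regions were called at 24 h and 1 by the F-test, and without the second 1 and 2.

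For H3K27ac, 2 of 24 regions were called longer at 24 h (against 3.30% of 21011 regions) and 0 were called shorter (against 3.02%). Both were promoters, that of *Nfe2l2* and that of *Keap1*, and the F-test called the same 2 regions (against 5.61%). No region was gained by presence (0 of 26, against 3.43%) and 1 was lost (against 4.18%). Both 24 h lists were longer than both 0 h lists in 13 regions (against 25.5%) and shorter in 2 (against 20.7%). At an unadjusted p under 0.05 there were 7 members' regions and 4444 regions in all. The median log2 difference was 0.10 in the members' regions and 0.01 in all regions. Without the second 0 h list 1 region was called and without the second 24 h list 4, and without the first 24 h list the F-test called 4. The number of regions gained or lost was 6 without the second 24 h list, and 2 without the first 24 h list or either 0 h list.

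**Figure D1:**
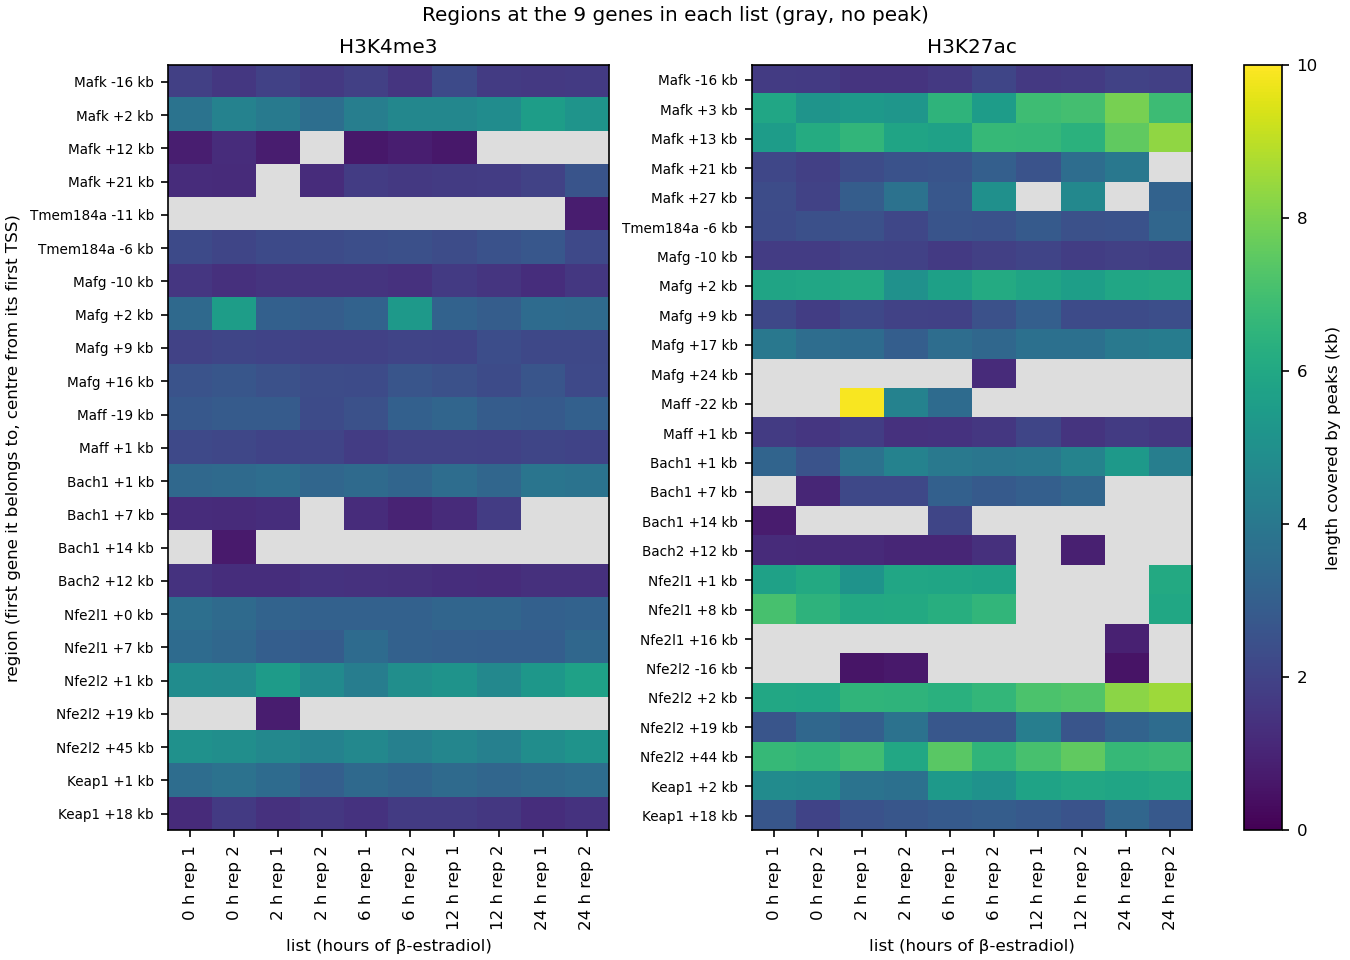
Length covered by peaks (color, kb) in each H3K4me3 region (left) and H3K27ac region (right) of the 9 genes, in each of the 10 lists of a mark ordered by hours of β-estradiol and replicate. Rows are named by the first gene and the distance of the region's center from that gene's first TSS, and gray means no peak. Most rows are filled in all 10 lists, and gaps at 24 h appear at *Bach1* +7 kb for both marks, *Mafk* +12 kb for H3K4me3, and *Bach2* +12 kb for H3K27ac.

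*Nfe2l2* encodes NRF2, the main activator of the oxidative stress response, and lies on the minus strand (chr2:75675513-75704641). Its promoter region had the greatest mean H3K27ac length of the 26 regions at 24 h, and it lengthened over the time course. The H3K27ac peak over the TSS spanned 6012 and 5928 bp at 0 h, 6552 and 6513 after 2 h, 6356 and 6620 after 6 h, 7172 and 7295 after 12 h, and 8260 and 8516 after 24 h. Both lists at 12 h and both at 24 h lay above all earlier lists. The mean length was 5970 ± 59.4 bp before β-estradiol, against 8388 ± 181 bp at 24 h (SD, n = 2), a log2 difference of 0.48 ± 0.06 (SE; adjusted p = 0.00636, F-test 0.0329).

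The *Nfe2l2* peak grew mostly into the gene. From the TSS it reached 3613 and 3739 bp into the gene at 0 h and 5065 and 6352 bp at 24 h. The gain of 2032.5 bp in the mean was at percentile 99.1 of the 8436 genes whose TSS was covered in all 10 lists, where the median gain was 72.5 bp. Upstream of the TSS the 24 h lists differed from each other, with 3194 and 2163 bp against 2398 and 2188 bp at 0 h. While the peak lengthened, its score percentile within the list changed from 70.1 and 70.6 (0 h) to 27.6 and 5.2 (24 h). With only peaks that reached the median score over all lists, the difference turned to -4.95 (adjusted p = 0.164), because neither 24 h peak reached that score.

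The H3K4me3 peak at the *Nfe2l2* TSS was in all 10 lists and was not called. It covered 4861 and 4807 bp at 0 h, 5490 and 4794 after 2 h, 4242 and 4942 after 6 h, 5143 and 4671 after 12 h, and 5299 and 5732 after 24 h. The 24 h lists were longer than both 0 h lists, but 1 list at 2 h was longer than the first 24 h list, and the log2 difference was 0.18 (adjusted p = 0.53), or -4.65 (0.37) with the same score filter. An intronic H3K27ac region 19 kb into the gene was also in all 10 lists, with 2650 to 4266 bp, and did not differ (0.16, adjusted p = 0.741).

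The bases just upstream of the annotated *Nfe2l2* start are shown because the lengthening peak covers them and they hold a match to the ARE. The sequence is from RefSeq (GRCm38.p6), minus strand, chr2:75704664-75704913, with the ARE match (TGACNNNGC) in capitals.
Nfe2l2 promoter: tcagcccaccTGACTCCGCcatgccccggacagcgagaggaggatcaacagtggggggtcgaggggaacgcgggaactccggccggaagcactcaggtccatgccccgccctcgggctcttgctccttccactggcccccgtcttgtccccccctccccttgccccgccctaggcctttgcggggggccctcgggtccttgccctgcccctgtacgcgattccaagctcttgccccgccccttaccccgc

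The letters TGACNNNGC, on either strand, occur in 12.4% of the 32851 RefSeq mouse promoters of the same length (250 bases before to 50 after a start). Among these genes they also occur in a promoter each of *Mafk*, *Mafg*, *Maff*, and *Tmem184a*. The share is per promoter, and some of the genes have more than 1 promoter in RefSeq (*Nfe2l1* 5, *Maff* 3, *Tmem184a* 2). The full MAF recognition element, TGCTGANTCAGCA, occurs in 2 of the 32851 promoters and in none of these genes.

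*Keap1* encodes the adaptor that brings NRF2 to the CUL3 ubiquitin ligase, and it lies on the minus strand (chr9:21229730-21239361). Its promoter H3K27ac peak first shortened and then lengthened. The covered length was 4826 and 4735 bp at 0 h, 3805 and 3705 after 2 h, 5373 and 5111 after 6 h, 5793 and 6015 after 12 h, and 5869 and 6035 after 24 h. The 2 h lists were the shortest of all, and every list from 6 h on lay above both 0 h lists. The score percentile within the list was 83.8 and 83.4 at 0 h, 97.3 and 97.5 after 2 h, and 71.3 and 61.9 after 24 h. The shortest peaks thus had the highest score percentiles. The mean was 4781 ± 64.3 bp at 0 h, 3755 ± 70.7 after 2 h and 5952 ± 117 after 24 h (SD, n = 2), with a log2 difference of 0.30 ± 0.06 between 24 h and 0 h (SE; adjusted p = 0.0232, F-test 0.00413).

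As at *Nfe2l2*, the added *Keap1* length lay inside the gene, where the peak reached 3251 and 3319 bp at 0 h, against 4720 and 4583 bp at 24 h (percentile 97.5 of all genes). Upstream the mean reach fell by 195 bp at 24 h (percentile 10.6). The call for 24 h against 0 h is close to the threshold. It was lost without the first 0 h list (adjusted p = 0.0752), the second 0 h list (0.102), the first 24 h list (0.0616), or the second 24 h list (0.0937), with log2 differences of 0.29 to 0.32, and with a replicate block (0.0538), lengths scaled by median peak length (0.0552), or a fit without the 6 lists between 0 h and 24 h (0.0503).

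H3K4me3 at the *Keap1* promoter stayed between 3041 and 3750 bp in all 10 lists, with a log2 difference of -0.06 (adjusted p = 0.794). A further region 18 kb downstream of the TSS, between genes, carried both marks in all 10 lists. There H3K27ac covered 2674 and 2000 bp at 0 h, against 3320 and 2781 bp at 24 h, a log2 difference of 0.37 (adjusted p = 0.205). The promoter is shown because the H3K27ac peak over it was called, and it holds a GATA match. It is read on the minus strand from RefSeq (GRCm38.p6), chr9:21239362-21239582, with the match (AGATAA) in capitals.
Keap1 promoter: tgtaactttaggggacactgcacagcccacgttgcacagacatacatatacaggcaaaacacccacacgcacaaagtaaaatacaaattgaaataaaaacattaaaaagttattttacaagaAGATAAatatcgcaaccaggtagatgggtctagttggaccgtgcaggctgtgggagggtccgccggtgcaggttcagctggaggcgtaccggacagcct

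The letters AGATAA or TGATAA, on either strand, occur in 18.6% of RefSeq promoters. Among these genes they occur in a promoter each of *Keap1*, *Bach2*, and *Maff*, of which *Maff* has 3 promoters.

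**Figure D2:**
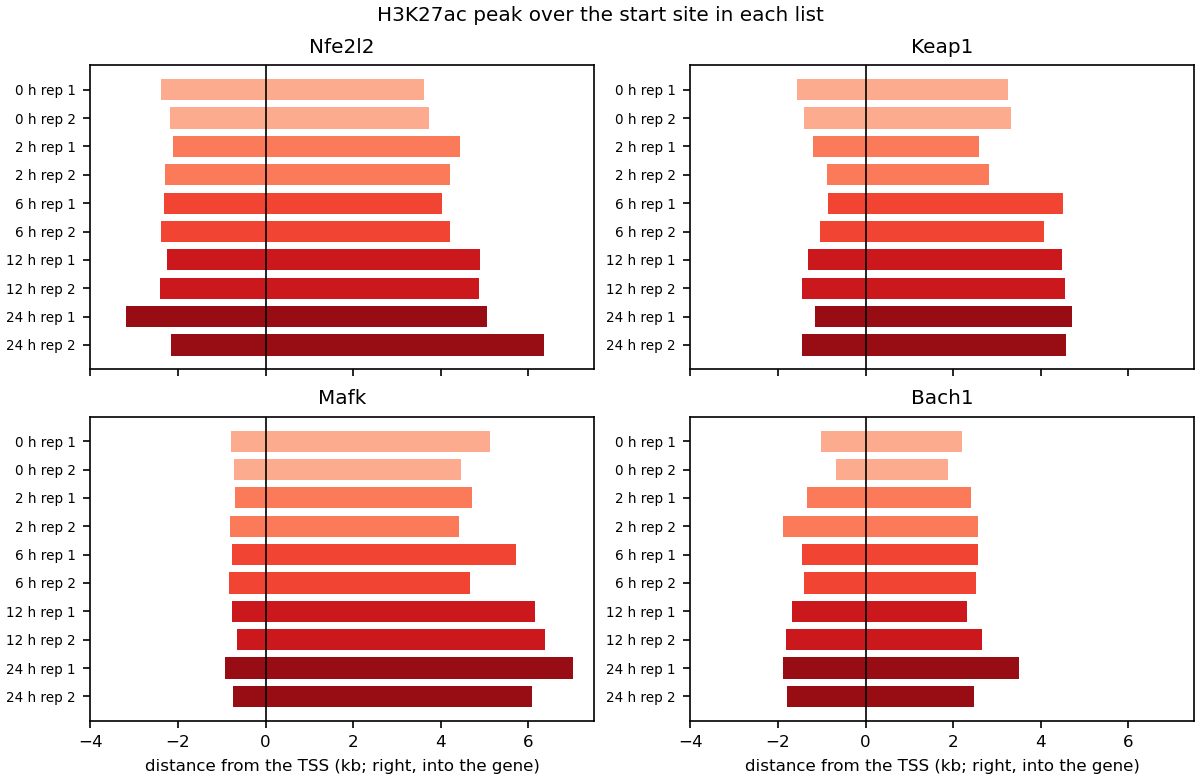
Span of the H3K27ac peak over the TSS of *Nfe2l2*, *Keap1*, *Mafk*, and *Bach1* in each of the 10 lists, in kb from the TSS with the gene to the right. Each bar is a peak of 1 list and darker red is a later time. At *Nfe2l2*, *Keap1*, and *Mafk* the later bars reach farther into the gene, and at *Bach1* they also reach farther upstream.

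*Mafk* encodes the small MAF protein that pairs with NF-E2 in erythroid cells. It lies on the plus strand (chr5:139791513-139802653), and *Tmem184a*, which encodes a transmembrane protein, is transcribed toward it from the other side (chr5:139802485-139819917), so that the far ends of both genes overlap. *Mafk* was among the promoters that the study targeted with catalytically inactive Cas9 in these cells. Its 3 guides lie upstream of the TSS, between positions -245 and -221. They are shown because their target is inside the promoter peak in all 10 lists of both marks, with the guide in lower case and the PAM in capitals.
Mafk guide, chr5:139791268-139791287, plus strand: gaccccgccccgggtgtgttGGG
Mafk guide, chr5:139791269-139791288, plus strand: accccgccccgggtgtgttgGGG
Mafk guide, chr5:139791273-139791292, minus strand: tccccaacacacccggggcgGGG

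The H3K4me3 peak at the *Mafk* TSS covered 3826 and 4436 bp at 0 h, 4091 and 3598 after 2 h, 4288 and 4637 after 6 h, 4643 and 4844 after 12 h, and 5577 and 5176 after 24 h. Both 24 h lists were longer than all 8 earlier lists. The log2 difference was 0.37 ± 0.09 (SE), which did not pass over all regions (adjusted p = 0.128). With only peaks that reached the median score over all lists it turned to -4.43 (adjusted p = 0.37). The added length lay downstream of the TSS, where the mean reach was 1263.5 bp greater at 24 h, at percentile 99.2 of 9572 genes. Upstream it changed by -18.0 bp.

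H3K27ac at the *Mafk* promoter had a similar order of lists. It covered 5926 and 5180 bp at 0 h, 5413 and 5237 after 2 h, 6492 and 5510 after 6 h, 6912 and 7022 after 12 h, and 7950 and 6839 after 24 h. All 4 lists at 12 h and 24 h lay above the 6 earlier ones. The log2 difference was 0.40 ± 0.12 (SE; adjusted p = 0.107), and the mean downstream reach was 1752 bp greater at 24 h (percentile 98.6). As at *Nfe2l2* the score percentile was lower at 24 h, 19.8 and 46.8 against 50.1 and 56.7 at 0 h, and with the score filter the difference turned to -2.37 (adjusted p = 0.612).

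A second H3K27ac region at the end of *Mafk* and over the end of *Tmem184a*, 13 kb from the *Mafk* TSS, was as long as the promoter region. Its covered length was 5539 and 6136 bp at 0 h, 6587 and 5830 after 2 h, 5735 and 6698 after 6 h, 6669 and 6403 after 12 h, and 7540 and 8329 after 24 h. Both 24 h lists were the longest, with a log2 difference of 0.43 (adjusted p = 0.0839). A short H3K4me3 region inside it, over an untranslated region of *Tmem184a*, had no peak at 24 h. It covered 826 and 1261 bp at 0 h, 807 bp in the first list at 2 h, 662 and 839 after 6 h, and 652 bp in the first list at 12 h, and it had no peak in the other list at 2 h and 12 h or in either list at 24 h. It was lost by presence, but its log2 difference of -2.61 did not pass (adjusted p = 0.265). It passed with equal numbers of top-scoring peaks per list (0.0323) and when the 6 lists between 0 h and 24 h were left out of the fit (0.0349).

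*Tmem184a* had its only H3K4me3 region of the gene's start sites at an internal TSS, 21 kb from that of *Mafk*. This region covered 1275 and 1228 bp at 0 h, 1263 bp in the second list at 2 h, 1787 and 1661 after 6 h, 1724 and 1780 after 12 h, and 1988 and 2615 after 24 h, with no peak in the first list at 2 h. All 6 lists from 6 h on were longer than both 0 h lists. The log2 difference of 0.77 did not pass (adjusted p = 0.751), but without the first 2 h list, where the peak is missing, it did (0.045).

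H3K27ac at the same internal TSS covered 2117 and 1884 bp at 0 h, 2326 and 2510 after 2 h, 2614 and 3025 after 6 h, 2567 and 3574 after 12 h, and 3992 bp in the first list at 24 h. The second 24 h list had no peak there. The log2 difference was -1.26 (adjusted p = 0.608), and -3.46 (adjusted p = 0.0012) without the first 24 h list, which leaves only the list with no peak. Without the second 24 h list it was 0.93 (adjusted p = 0.0672), so its direction depends on which 24 h list is used. At the first TSS of the gene, H3K27ac covered 1957 to 5021 bp in 8 lists, with no peak in the first list at 12 h and at 24 h. The log2 difference there was -1.51 (adjusted p = 0.666), or 0.52 (0.967) without the first 24 h list. Up to 12 h each time point's mean at the internal TSS was above the one before, whereas the 24 h mean rests on lists that disagree.

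Over the whole window of *Tmem184a*, which holds the *Mafk* promoter, H3K4me3 covered 8192 and 9014 bp at 0 h, 7160 and 7143 after 2 h, 9130 and 9565 after 6 h, 9351 and 9137 after 12 h, and 10270 and 10796 after 24 h. The 2 h lists were the shortest and the 24 h lists the longest. Between 24 h and 0 h this was a log2 difference of 0.29 ± 0.06 (SE; adjusted p = 0.0816). This was the smallest adjusted p of the 9 windows, none of which was called longer (0 of 9, against 0.431% of 13679 windows) or shorter (against 0.673%), with 4 at an unadjusted p under 0.05 (1574 of all windows). For H3K27ac no window was called longer (0 of 9, against 3.44% of 13938) or shorter (against 1.89%), with 3 at an unadjusted p under 0.05 (2930 of all windows). The smallest adjusted p was 0.0519, at *Keap1*. The count was 1 H3K27ac window without either 12 h list or without the second 24 h list.

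The F-test over all time points, applied to windows only after the values were seen, called the H3K4me3 window of *Tmem184a* (adjusted p = 0.034), 1 of 9 windows against 0.760% of all. That call was lost without any 1 of the 8 lists from 2 h on, with the replicate block, with scaled lengths, and with windows of 5 or 50 kb. The overlapping window of *Mafk* was not called (0.0882). For H3K27ac the F-test called 0 of 9 windows (against 2.33%), with the smallest adjusted p, 0.0604, at *Nfe2l1*, and it called 1 without either list at 6, 12, or 24 h.

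**Figure D3:**
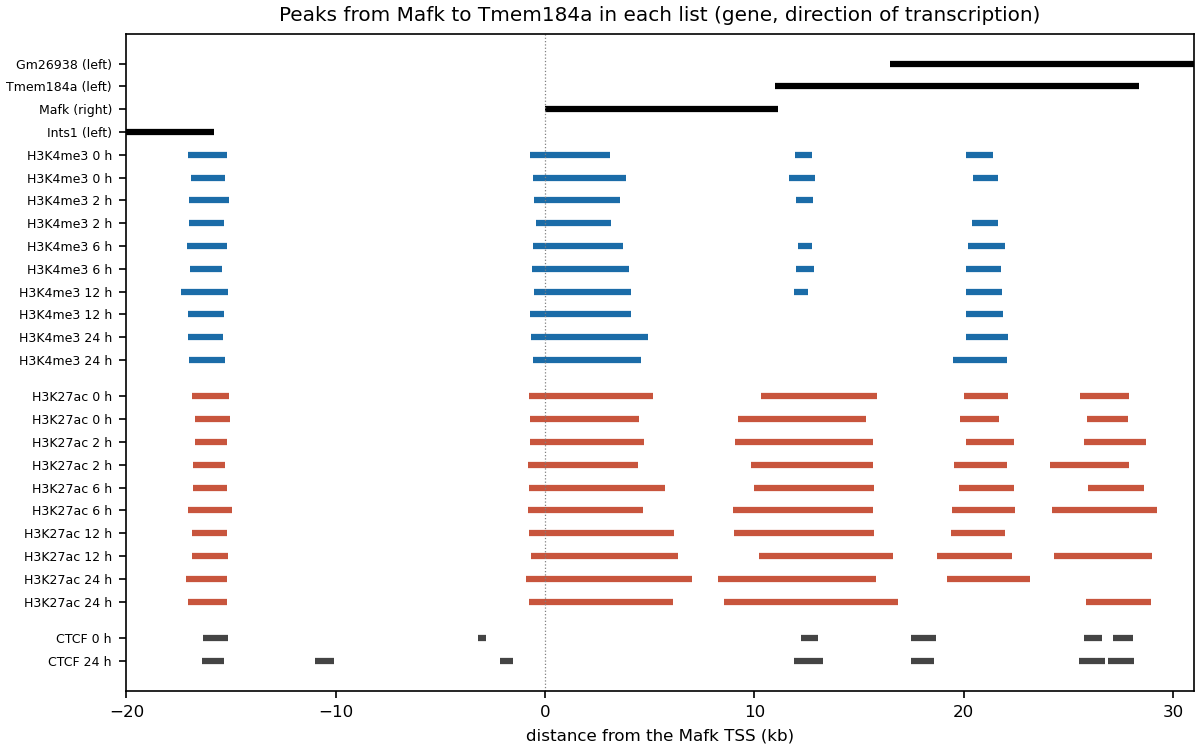
Peaks in each list from upstream of *Mafk* to *Tmem184a*, in kb from the *Mafk* TSS, with gene bodies as black bars (H3K4me3 blue, H3K27ac red, CTCF gray, replicate 1 above replicate 2). The H3K4me3 and H3K27ac peaks at the *Mafk* TSS extend farther right at 24 h than at 0 h, the short H3K4me3 peak near 12 kb is missing at 24 h, and CTCF peaks at 0 h and 24 h line up inside *Tmem184a*.

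By the correlation of covered H3K4me3 length over the 10 lists, the TSS regions most like that of *Mafk* among 8776 were those of *Ccdc186* (Pearson r = 0.944), *Tmcc2* (0.936), and *Pik3r1* (0.925). At *Tmcc2*, for example, the region covered 1819 and 2092 bp at 0 h, against 2732 and 2971 bp at 24 h. These points share their lists and the time course, and the correlation is given as a description.

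At the other small MAF genes the 24 h lists lay close to 1 or both of the 0 h lists. *Mafg* (chr11:120625117-120633600, minus strand) had H3K27ac of 5848 and 5928 bp at 0 h, against 5932 and 6053 bp at 24 h, with 5061 to 6099 bp between those times (log2 difference 0.02, adjusted p = 0.967). Its H3K4me3 peak covered 3408 and 5550 bp at 0 h, 3079 and 2951 after 2 h, 3147 and 5429 after 6 h, 3133 and 2958 after 12 h, and 3501 and 3457 after 24 h. The second lists at 0 h and 6 h stood apart from their replicates, so the log2 difference of -0.31 (adjusted p = 0.731) rests on 1 of the 2 lists at 0 h. It was 0.03 (adjusted p = 1) without the second 0 h list and 2.11 (0.796) with the score filter.

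*Maff* (chr15:79346621-79359076, plus strand) had the shortest promoter peaks of the small MAF genes. H3K4me3 covered 2199 and 2119 bp at 0 h, against 2097 and 2014 bp at 24 h (log2 difference -0.06), and H3K27ac covered 1723 and 1574 bp at 0 h, against 1744 and 1640 bp at 24 h (0.03, adjusted p = 0.991, with a sign that changed when lengths were scaled). The 24 h lists overlapped the 0 h lists for H3K27ac and were both shorter for H3K4me3. A region 22 kb upstream, over *Pla2g6*, had H3K27ac only in both 2 h lists (9899 and 4423 bp covered) and the first 6 h list (3515 bp). The longest peak of the first 2 h list was 8769 bp, so the 9899 bp are a sum over separate peaks. The region did not pass the F-test (adjusted p = 0.195), and whether a long peak went unlisted in the other 7 lists was not tested.

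*Bach1* encodes the heme-regulated repressor that competes with NRF2 for small MAF partners. It lies on the plus strand (chr16:87698945-87733346) and was also targeted in the study, by 3 guides between positions -262 and -215 from the TSS.
Bach1 guide, chr16:87698711-87698730, plus strand: agatagggcgacgcggttggAGG
Bach1 guide, chr16:87698708-87698727, plus strand: cagagatagggcgacgcggtTGG
Bach1 guide, chr16:87698683-87698702, minus strand: ggtggcaaggttacacgtcaCGG

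The *Bach1* promoter carried H3K27ac of 3233 and 2552 bp at 0 h, 3763 and 4453 after 2 h, 4039 and 3926 after 6 h, 3994 and 4492 after 12 h, and 5390 and 4275 after 24 h. All 8 lists with β-estradiol, from 2 h on, were longer than both 0 h lists. The log2 difference between 24 h and 0 h, 0.70 ± 0.15 (SE), was the greatest gain in H3K27ac length at a TSS of these genes and narrowly missed the threshold (adjusted p = 0.0504, F-test 0.225). It passed without the second 24 h list (0.86, adjusted p = 0.0471), with a pseudocount of 1000 bp (0.0466), and with lengths scaled by median peak length (0.0464). At 24 h the mean reach was 998 bp greater upstream of the TSS (percentile 98.5) and 942 bp greater downstream (percentile 94.6).

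H3K4me3 at the *Bach1* TSS covered 3369 and 3462 bp at 0 h, 3278 to 3587 bp from 2 to 12 h, and 3904 and 3800 after 24 h. Both 24 h lists were longer than the 8 earlier lists, but the log2 difference of 0.16 was not called (adjusted p = 0.308).

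Inside the gene, an intronic region 7 kb from the *Bach1* TSS had peaks of both marks in some lists only. Its H3K27ac covered 0 and 1066 bp at 0 h, 2150 and 2173 after 2 h, 3076 and 2834 after 6 h, 3024 and 3306 after 12 h, and no peak was listed at 24 h in either replicate. The region was thus longest at 6 and 12 h and without a listed peak at 24 h. The F-test over all time points gave an adjusted p of 0.0696, and 24 h against 0 h gave a log2 difference of -1.33 (adjusted p = 0.405). These peaks were at most 3306 bp long, and the promoter peak ended before the region in every list.

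H3K4me3 at the same place covered 1287 and 1231 bp at 0 h, 1327 bp in the first list at 2 h, 1259 and 986 after 6 h, 1226 and 1780 after 12 h, and had no peak in the second list at 2 h or in either list at 24 h. It was lost by presence (log2 difference -2.87, adjusted p = 0.173). The difference was called without the first 2 h list (0.00742) or the second (0.00576), and when the 6 lists between 0 h and 24 h were left out of the fit (0.0169).

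The intronic *Bach1* region (chr16:87704340-87708484, 4145 bp) holds 11 matches to AGATAA or TGATAA on either strand, and 78 of 2078 H3K27ac regions of like length (3.75%) hold as many. It also holds 4 pairs of the letters CTG and GATA spaced by 8 or 9 bases, and 35 of the 2078 regions (1.68%) hold as many (median 1). The spacing is that of sites where GATA1 and TAL1 bind together, but the letters alone do not make such a site. Of the 4 pairs, only the last one shown has its GATA within AGATAA or TGATAA. The 4 pairs are shown with their flanks because they lie in the region with H3K27ac at 2 to 12 h, with CTG and GATA in capitals, read from GRCm38 in the direction of the match.
Bach1 intron, chr16:87704471-87704526, minus strand: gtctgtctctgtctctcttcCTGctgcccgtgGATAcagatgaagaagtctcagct
Bach1 intron, chr16:87705689-87705744, plus strand: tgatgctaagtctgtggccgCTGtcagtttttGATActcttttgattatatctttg
Bach1 intron, chr16:87706506-87706560, plus strand: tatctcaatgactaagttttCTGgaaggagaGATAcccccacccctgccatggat
Bach1 intron, chr16:87707509-87707563, plus strand: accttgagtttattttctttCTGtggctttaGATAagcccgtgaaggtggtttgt

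*Bach2* encodes the related repressor best known from B cells, and it had no peak of either mark at any TSS in any list. Its one marked region lay in an intron 12 kb into the gene, which is the longest of the 9 (347305 bp, chr4:32238804-32586108, plus strand). H3K4me3 there was in all 10 lists with 1256 to 1476 bp with a log2 difference of 0.00. H3K27ac covered 1235 and 1196 bp at 0 h, 1196 and 1068 after 2 h, 1063 and 1398 after 6 h, and 896 bp in the second list at 12 h, with no peak in the first list at 12 h or in either list at 24 h.

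The *Bach2* intron was the H3K27ac region lost by presence, while H3K4me3 persisted at the same place. The log2 difference of -2.82 ± 0.73 (SE) did not pass (adjusted p = 0.0839). It passed without either 12 h list (0.00301 and 0.00385) and when the 6 lists between 0 h and 24 h were left out of the fit (0.00973). The H3K27ac region (chr4:32249729-32251126, 1398 bp) holds no AGATAA or TGATAA, which 80.5% of 1468 regions of like length hold. It holds 4 matches to TGANTCA, the AP-1 element, and 9.33% of those regions hold as many. TGANTCA reads the same on both strands, so in all these regions each site was counted once on each strand.

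**Figure D4:**
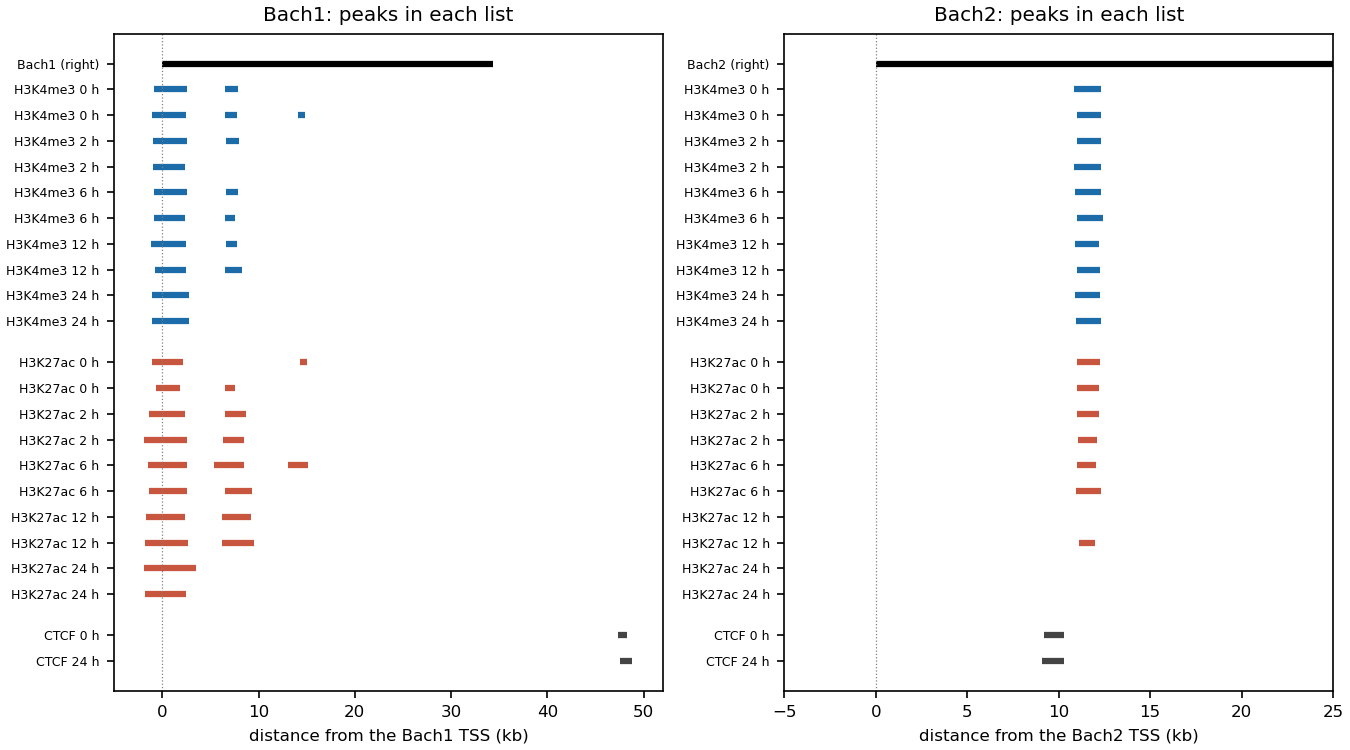
Peaks in each list at *Bach1* (left) and at the start of *Bach2* (right), in kb from the first TSS, with the gene body as a black bar (H3K4me3 blue, H3K27ac red, CTCF gray, replicate 1 above replicate 2). The H3K27ac peak near 7 kb in *Bach1* is present in both lists at 2, 6, and 12 h and in neither at 24 h, and the H3K27ac peak near 12 kb in *Bach2* is missing at 24 h while the H3K4me3 peak stays.

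*Nfe2l1* encodes NRF1, which controls proteasome genes and is tethered to the endoplasmic reticulum until it is processed. It lies on the minus strand (chr11:96817414-96829968) and has start sites in both of its marked regions. H3K4me3 at the first TSS covered 3661 and 3454 bp at 0 h, 3189 and 3122 after 2 h, 3108 and 3120 after 6 h, 3273 and 3245 after 12 h, and 3054 and 3133 after 24 h. All 8 later lists were shorter than both 0 h lists. The log2 difference of -0.19 ± 0.04 (SE) had the smallest adjusted p of the H3K4me3 regions of these genes, 0.108. At the start sites 7 kb downstream H3K4me3 covered 2924 to 3507 bp in all 10 lists.

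H3K27ac at *Nfe2l1* was listed or not listed as a whole. The region over the first TSS covered 5732 and 6078 bp at 0 h, 5149 and 5911 after 2 h, 5893 and 5795 after 6 h, and 6058 bp in the second list at 24 h, and had no peak in either list at 12 h or in the first list at 24 h. The region 8 kb downstream covered 6019 to 7091 bp in the 6 lists up to 6 h and 5946 bp in the second list at 24 h, and was missing from the same 3 lists. Both regions are separated by 35 bp and span 13383 bp together, more than the longest peak of any list, and whether a joined peak went unlisted in the 3 lists was not tested. The log2 differences of -2.45 and -2.65 were not called (adjusted p = 0.401 and 0.355). They were -4.93 and -5.12 without the second 24 h list (adjusted p = 4.3e-05 and 2.04e-05), which leaves only the list with no peak, and 0.04 and -0.18 without the first (0.936 and 0.32).

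**Figure D5:**
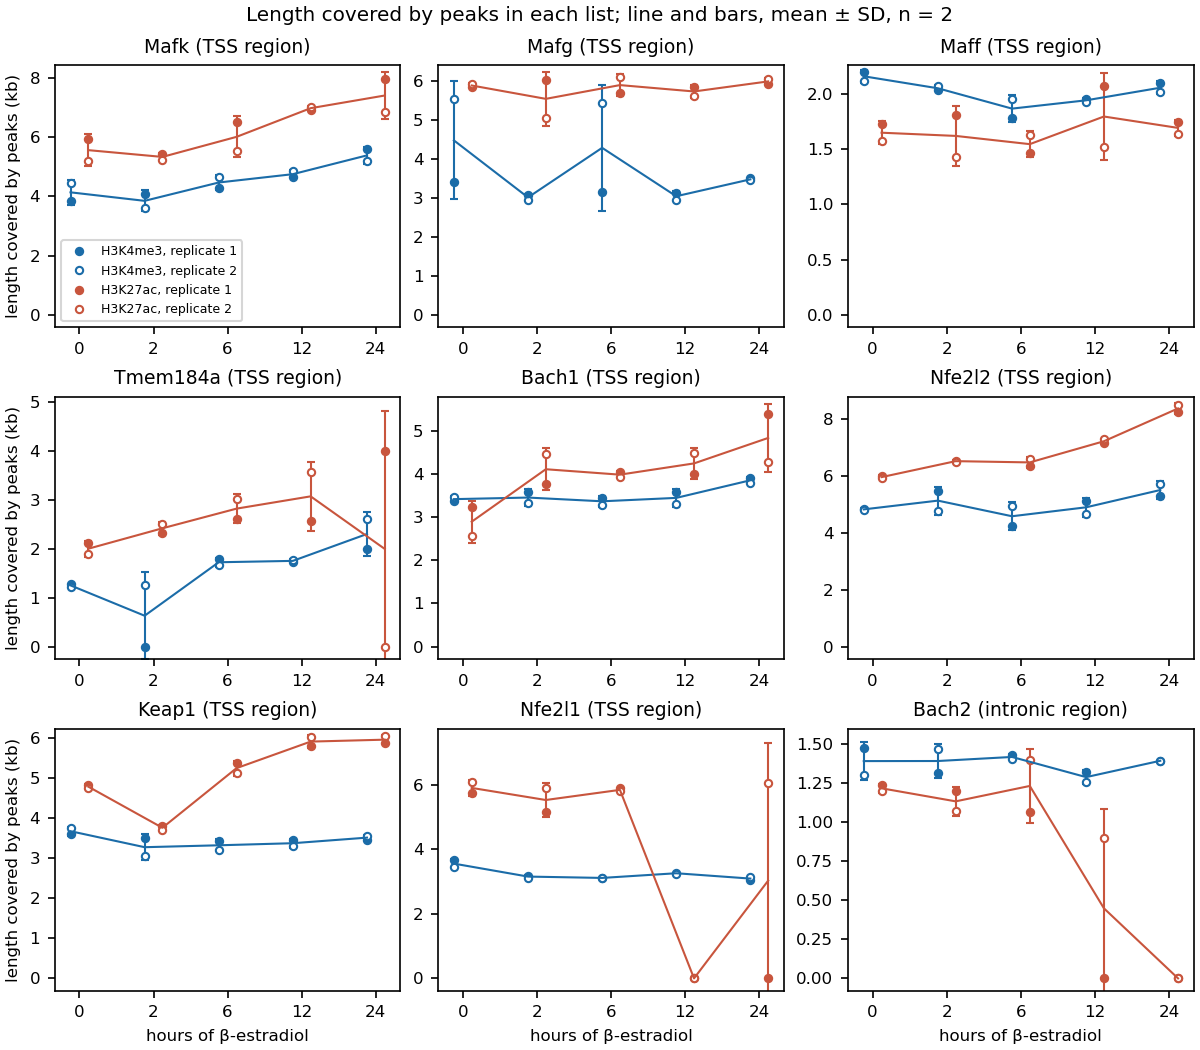
Length covered by peaks (kb) in the promoter region of each gene, or in the intronic region of *Bach2*, by hours of β-estradiol (evenly spaced, not to scale). Points are single lists, and lines and bars are mean ± SD (n = 2). Both 24 h points for H3K27ac lie above both 0 h points at *Nfe2l2*, *Keap1*, *Mafk*, *Bach1*, and *Mafg*. Of these, *Nfe2l2* and *Keap1* were called, and at *Mafg* the log2 difference was only 0.02. *Nfe2l1*, *Tmem184a*, and *Bach2* have points at 0.

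Other genes of the pathway were read from a list of 41, namely partners and regulators of these factors and their targets. For H3K4me3, 37 had a tested TSS region, of which 36 were in all 10 lists, and 0 were called longer (against 0.508% of 10043 genes) or shorter (against 0.378%), with a median log2 difference of 0.05. *Nfe2l3* (NRF3), *Maf*, and the NRF2 target *Osgin1* had no H3K4me3 peak at a TSS in any list. Without the second 24 h list 1 gene was called.

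For H3K27ac, 31 of the 41 genes were tested, of which 27 were in all 10 lists. None was called longer (against 2.29% of 9576 genes) and 1 was called shorter (against 0.971%), and the median log2 difference was 0.11. No H3K27ac peak at a TSS was listed for *Nfe2* (the NF-E2 subunit that pairs with MAFK), *Nfe2l3*, *Maf*, *Gclm*, *Osgin1*, *Blvrb*, *Fech*, or *Hbb-bt*. The count of calls was 0 without the first 0 h list and 2 without either list at 6 h, either list at 12 h, or the second 24 h list.

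The called gene was *Tkt*, which encodes transketolase of the pentose phosphate pathway. Its H3K27ac covered 7435 and 7341 bp at 0 h and no peak was listed at any later time (log2 difference -5.25 ± 0.28 SE, adjusted p = 0.000241). Its H3K4me3 peaks had 5695 and 5867 bp at 0 h, against 6684 and 6952 bp at 24 h and were in all 10 lists (0.23, adjusted p = 0.595). Its 0 h H3K27ac peaks were near the upper bound of peak length, and whether a longer peak went unlisted was not tested. Of the targets that missed the threshold, 2 with peaks in all 10 lists are named here after their values were seen. The adult β-globin gene *Hbb-bs*, whose near-identical copy *Hbb-bt* can share its reads, covered 2208 and 2486 bp at 0 h, against 5583 and 5574 bp at 24 h (1.18, adjusted p = 0.0603). *Gclc*, of glutathione synthesis, covered 2855 and 3459 bp at 0 h, against 4562 and 4595 bp at 24 h (0.52, adjusted p = 0.0573).

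CTCF was compared between 1 list at 0 h and 1 at 24 h, so no test was possible and a region is described by the list that held it. At the 9 genes, 24 of 36 CTCF regions (66.7%) were in both lists, against 68.9% of all 43987 regions. A further 10 were only in the 24 h list (27.8%, against 25.1%) and 2 only in the 0 h list (against 5.94%). The 24 h list held more peaks in all. Of the 36 regions, 12 overlapped an H3K27ac region and 8 an H3K4me3 region. The shares over all CTCF regions are not given here, so these counts are only a description.

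The strongest CTCF peak by rank lay 48 kb from the *Bach1* TSS, beyond the end of the gene, at score percentile 99.2 of both lists, and it was the only CTCF region of *Bach1*. *Mafk* had 8 regions (5 in both lists) and *Tmem184a* 8 (6 in both), and they share 6 of these. The one over *Ints1*, at -15.8 kb from the *Mafk* TSS, had score percentiles of 96.2 at 0 h and 99.0 at 24 h. At *Keap1*, the region at -2.2 kb from the TSS had percentiles of 96.3 and 98.3, and 3 of 4 regions were in both lists.

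*Nfe2l2* had 5 CTCF regions, 2 in both lists and 3 only at 24 h. One of the 3 lay over the TSS (chr2:75704148-75705445, 1298 bp) under the lengthening H3K27ac peak, with a score percentile of 8.9, near the bottom of its list. All 4 regions of *Mafg* were in both lists, 1 of 2 at *Maff*, 5 of 6 at *Bach2*, and 1 of 4 at *Nfe2l1*.

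The letters CCANNAGNNGGC, a short form of the CTCF motif, were found on either strand in 24 of the 36 regions, against 54.4% of all CTCF regions. A selection of matches from members is shown in capitals with flanks, read in the direction of the match from GRCm38. Regions in both lists come first, then those of a single list.
Bach1 +48.1 kb, both lists, chr16:87746896-87746925, plus strand: ccggtgtggCCAGAAGAGGGCactatatcc
Mafk +12.6 kb, both lists, chr5:139804169-139804198, minus strand: agggctcagCCAGCAGGGGGCtgccttcct
Mafk +26.1 kb, both lists, chr5:139817486-139817515, minus strand: tacaggtgtCCAGCAGGGGGCaggcactgc
Keap1 +18.4 kb, both lists, chr9:21220588-21220617, minus strand: cgcaggagcCCAGAAGGGGGCgcgagaggg
Mafk -10.5 kb, only 24 h, chr5:139780892-139780921, minus strand: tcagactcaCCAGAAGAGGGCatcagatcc
Keap1 +6.3 kb, only 24 h, chr9:21233049-21233078, minus strand: tcagacacaCCAGAAGAGGGCggcagatct
Nfe2l1 +19 kb, only 24 h, chr11:96810394-96810423, plus strand: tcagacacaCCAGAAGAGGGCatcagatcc
Nfe2l1 -14.3 kb, only 0 h, chr11:96844266-96844295, minus strand: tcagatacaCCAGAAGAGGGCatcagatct
Mafk -3.0 kb, only 0 h, chr5:139788513-139788542, plus strand: tcaaacacaCCAGAAGAGGGCatccagatc

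The single-list sequences shown resembled each other, but this depends partly on the selection. The match at *Nfe2l2* +26.4 kb, only at 24 h, has other letters and is not shown. Regions in both lists at *Maff* -17.0 kb, *Nfe2l2* +40.5 kb, and *Bach2* +348.2 kb, also not shown, hold the same letters as the single-list matches shown. The letters CCAGAAGAGGGC made up 48.6% of all 26800 matches in CTCF regions. They occurred in 22.0% of regions in both lists, 33.0% of those only at 0 h, and 40.6% of those only at 24 h, and at the 9 genes in 6 of 24, 2 of 2, and 5 of 10. Where a region held the motif, it lay in bases that the genome file masks as repeats in 50.7% of regions in both lists, 76.1% only at 0 h, and 82.1% only at 24 h. At the 9 genes these counts were 8 of 16, 2 of 2, and 6 of 6.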

How the data were processed

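ChIP-seq peak lists of 22 samples were analyzed, 10 each for H3K4me3 and H3K27ac and 2 for CTCF, grouped by antibody and hours in the sample titles. The authors aligned reads with Bowtie2 (mm10) and called histone peaks per library on uniquely mapped reads with MACS without model building. The caller's version, control, and threshold, and all CTCF methods, are not given in the sources used here. The sample descriptions name a human build, but a mouse TSS lay in 62.5% to 69.1% of the H3K4me3 peaks of a list, and in 6.60% to 7.14% after a move of 50 kb. The deposited score, by its form minus 10 times log10 of a p-value, was used only for ranks and filters. Depth is unknown, so no counting interval is given. MACS scores a peak against a background that it estimates from the surrounding sequence, which can lower the scores of long peaks.

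Covered length per consensus region and per gene window was fitted on log2(covered bp + 200) with limma (version 3.58.1, R 4.3.3; lmFit, then eBayes with a trend), with a mean per time point over the 10 lists of a mark and Benjamini-Hochberg adjustment over all regions. All 10 lists entered because 2 lists against 2 cannot go below an exact p of 0.333. The fit was tested on simulated data. CTCF regions overlapped by at least 1 bp. Python 3.11.15 was used with numpy 2.4.6, pandas 2.3.3, and matplotlib 3.10.9. Promoters were from RefSeq, in which all 9 genes had a match, and other sequences from GRCm38.

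Values in every list are given for called regions and for regions gained or lost. For regions at a TSS of the genes they are given in every list, partly as ranges, or for 0 h and 24 h only. Pathway genes are named when called or without a peak (1 is counted but not reported here), and 3 genes most like *Mafk* by correlation. The genes and lists were chosen with earlier results of these data known.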

Additional observations from a re-analysis of the deposited data

How the results depend on the processing

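Alternatives were a score filter (peaks that reached the median score over all lists), the same number of highest-scoring peaks from each list (equal numbers), pseudocounts of 50 and 1000 bp, minimum numbers of lists of 1 and 5, merging within 500 bp, windows of 5 and 50 kb, scaled lengths, a 50% CTCF overlap, a fit without the 6 lists between 0 h and 24 h (4-list fit), a replicate block, and leaving out each list in turn. Of the comparisons of single regions, 400 kept their direction and side of the threshold, 15 newly passed, 7 (all at *Keap1*) no longer passed, and 13 reversed, of which only *Nfe2l2* H3K27ac was called beforehand.

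With the score filter, which leaves out peaks under a set score, H3K27ac reversed at *Nfe2l2* (-4.95) and *Mafk* (-2.37), and H3K4me3 at *Nfe2l2* (-4.65), *Mafk* (-4.43), and *Mafg* (2.11). With scaled lengths H3K27ac reversed at *Mafg* (-0.03) and *Maff* (-0.02). Without single lists, the range was -0.64 to 0.03 for *Mafg* H3K4me3 and, for H3K27ac, -0.02 to 0.09 at *Maff*, -4.93 to 0.04 at the first TSS of *Nfe2l1*, -3.54 to 0.52 at the first TSS of *Tmem184a*, and -3.46 to 0.93 at its internal TSS. At *Nfe2l1* and *Tmem184a* a 24 h list without a peak decides the sign. The cause of the others was not tested.

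Counts of calls moved as follows. H3K4me3 regions called at 24 h (0) became 1 with equal numbers and 2 in the 4-list fit, and 0 to 2 without single lists. Calls at any time (0) became 1 with equal numbers, and 0 to 2 without single lists. H3K4me3 pathway promoters (0) became 1 with a pseudocount of 50 bp or a minimum of 1 list, and 0 to 1 without single lists. H3K27ac regions called at 24 h (2) became 1 with the replicate block and 4 with 50 kb windows, and 1 to 4 without single lists. H3K27ac calls at any time (2) became 1 with the replicate block or scaled lengths, 4 with 50 kb, and up to 4 without single lists. H3K27ac windows (0) became 3 with the score filter and 1 with a pseudocount of 50 bp, 5 kb, 50 kb, or the 4-list fit, and 0 to 1 without single lists. Window calls at any time come from a test added after the values were seen. For H3K4me3 they went from 1 to 0 with the score filter, the replicate block, scaled lengths, 5 kb, or 50 kb. With equal numbers they went to 2. The 4-list fit has only 1 contrast and so gives no F-test. For H3K27ac the window calls at any time went from 0 to 4 with the score filter. They went to 1 with equal numbers, a pseudocount of 50 bp, or 5 kb. H3K27ac regions gained or lost (1) became 2 with the score filter and 4 with 50 kb, and 1 to 6 without single lists. H3K27ac pathway promoters (1) became 0 with the score filter or a minimum of 5 lists, 2 with the replicate block or the 4-list fit, and 0 to 2 without single lists. CTCF regions in both lists (24) became 13 with the score filter, 14 with 5 kb, and 46 with 50 kb.

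Replicate numbers did not pair the samples. Deviations of same-numbered lists correlated between -0.12 and 0.04 for H3K4me3 and between -0.03 and 0.02 for H3K27ac over 10 pairs of time points each, so the block is given only as above.

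The lists give no signal below the caller's threshold and no read counts. Long H3K27ac regions are missing from some lists, and there are 2 lists per time point.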

Other observations

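No promoter of another gene within the windows was called. Of the 7 H3K4me3 regions that held a TSS of a neighbor only (among them *Ints1*, *Psmg3*, *Pcyt2*, *Sirt7*, *Pycr1*, *Pla2g6*, and *Hnrnpa3*), all 7 were in all 10 lists, with log2 differences from -0.11 to 0.16 and 0 calls (over all genes, 0.508% of TSS regions were called longer and 0.378% shorter). Of the 7 for H3K27ac, 6 were in all 10 lists, and the differences ran from 0.00 to 0.26 with 0 calls (over all genes, 2.29% longer and 0.971% shorter). In 6 of 7 both 24 h lists were longer than both 0 h lists. That held for 25.5% of all tested regions, with or without a TSS, and the share at TSS regions alone is not given. The median log2 difference was 0.05 in protein-coding TSS regions and 0.01 in all tested regions. The H3K27ac region of *Hnrnpa3*, which encodes an RNA-binding protein, covered 6714 and 6598 bp at 0 h and 6716 and 6799 bp at 24 h, close in length to that of *Nfe2l2* at 0 h.

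In the pathway list, H3K27ac at the ferritin heavy chain gene *Fth1* was listed in only 2 lists, the second at 0 h (7119 bp) and the second at 24 h (6857 bp). *Slc48a1*, the gene of a heme transporter, kept 7189 and 7524 bp at 0 h and 7614 and 6874 bp at 24 h. *Hba-a2*, an α-globin gene that can share reads with *Hba-a1*, covered 2574 and 2392 bp at 0 h and 6033 and 3317 bp at 24 h (adjusted p = 0.124). *Sqstm1*, the gene of a receptor for selective autophagy that binds KEAP1, covered 6673 and 6674 bp at 0 h and 4557 and 5652 bp at 24 h (adjusted p = 0.376). These 4 genes were chosen after their values were seen.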
